A study of Homo sapiens with 3 samples.

Results

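The 7432 genes described here are those with a mean of at least 5 FPKM over the 2 libraries of H660 cells treated with JG231, out of 58735 genes in the table, and the comparison is that of the higher dose, 5 µM, with the lower dose, 2.5 µM. FPKM are fragment counts scaled to the length of the transcript and to the size of the library. H660 cells are an established human line of neuroendocrine prostate cancer, labelled by the submitters as parental and as prostatic adenocarcinoma, and JG231 is an allosteric inhibitor of the chaperone HSP70. RNA-seq was performed on H660 cells after 24 h in vehicle (DMSO), 2.5 µM JG231 or 5 µM JG231, with 1 library per condition. The DMSO library is given as a reference level and did not enter the change between the doses. The question is which gene classes went on changing when the dose of the inhibitor was raised.

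HSP70 chaperones bind unfolded stretches of other proteins, with J-domain proteins delivering the clients and nucleotide exchange factors releasing them. When unfolded protein accumulates in the cytosol, heat shock factor 1 is known to activate genes for HSP70, its J-domain partners, HSP90 cofactors and ubiquitin through heat shock elements, which are inverted repeats of the letters GAA in a promoter. A separate pathway, the integrated stress response, lowers translation while the transcription factors ATF4 and CHOP (encoded by DDIT3) switch on genes of amino acid supply and growth arrest, and metallothionein genes respond to free zinc through metal response elements.

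Promoter sequences are shown for 4 chaperone and metallothionein genes that were higher at 5 µM than at 2.5 µM and whose windows hold the motif searched. They run from 250 bases before to 50 bases after the annotated start of transcription and were read from RefSeq (GRCh38.p14) for 12 genes. In HSPA1A (the plus strand of chr6:31815293-31815592), HSPA8 (the minus strand of chr11:123062087-123062386) and DNAJA1 (the plus strand of chr9:33025023-33025322), capitals mark the pair of heat shock repeats searched, GAANNTTC or TTCNNGAA. In MT2A (the plus strand of chr16:56608334-56608633), they mark the metal response core, TGCACNC or TGCGCNC on either strand.
HSPA1A: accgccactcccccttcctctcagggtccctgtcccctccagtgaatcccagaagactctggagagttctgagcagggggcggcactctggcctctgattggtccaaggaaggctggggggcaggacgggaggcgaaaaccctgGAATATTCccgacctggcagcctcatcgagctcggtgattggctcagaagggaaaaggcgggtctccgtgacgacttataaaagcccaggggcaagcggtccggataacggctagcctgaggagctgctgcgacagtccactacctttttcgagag
HSPA8: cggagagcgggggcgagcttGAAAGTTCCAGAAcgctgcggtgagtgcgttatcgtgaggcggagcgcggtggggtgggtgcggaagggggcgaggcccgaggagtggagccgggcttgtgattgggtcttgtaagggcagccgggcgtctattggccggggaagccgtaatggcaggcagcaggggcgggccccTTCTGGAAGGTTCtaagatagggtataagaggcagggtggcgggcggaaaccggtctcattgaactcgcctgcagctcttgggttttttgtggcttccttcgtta
DNAJA1: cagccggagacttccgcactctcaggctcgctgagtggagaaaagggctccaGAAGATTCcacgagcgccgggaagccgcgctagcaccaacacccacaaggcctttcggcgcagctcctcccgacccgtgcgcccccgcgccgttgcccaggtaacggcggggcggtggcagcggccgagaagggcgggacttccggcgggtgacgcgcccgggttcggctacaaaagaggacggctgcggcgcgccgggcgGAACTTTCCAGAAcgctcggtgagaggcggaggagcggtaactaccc
MT2A: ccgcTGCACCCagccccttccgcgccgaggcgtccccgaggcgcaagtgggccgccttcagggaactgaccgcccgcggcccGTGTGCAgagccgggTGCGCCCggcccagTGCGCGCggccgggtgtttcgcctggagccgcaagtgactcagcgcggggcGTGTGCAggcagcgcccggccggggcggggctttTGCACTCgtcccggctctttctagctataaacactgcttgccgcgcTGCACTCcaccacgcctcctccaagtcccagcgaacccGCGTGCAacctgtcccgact
The heat shock pair occurred 4 times in the window of HSPA8, 3 times in that of DNAJA1 and 1 time each in those of HSPA1A, HSPA1B and HSPB1, with overlapping matches counted separately. It was not found in the windows of DNAJB1 and UBB, which are at inner starts. The RefSeq start differed from the outermost GENCODE start for 5 of the 12 genes (HSPA8, DNAJB1, UBB, TRIB3 and DDIT3), so each search covers 1 start only. Of 35116 RefSeq windows of this length, 13.5% held at least 1 such pair and 1.71% held 2 or more. The metal response core occurred 8 times in MT2A and 2 times in SLC30A1, where 29.6% of all windows held at least 1 and 8.60% held 2 or more. Among the 5809 windows of genes described here, 40.6% held at least 1 metal response core and 12.9% held 2 or more, and 10.1% held at least 1 heat shock pair and 1.02% held 2 or more. A core of the element read by ATF4, TGATGNAA, was searched in DDIT3, TRIB3 and SESN2 and was not in their windows; 3.62% of all windows and 1.70% of the members' windows held it. A match is a run of letters and was not tested for binding.

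Depth was recovered from the steps of the FPKM values and came to 16.08 M fragments for DMSO, 20.37 M at 2.5 µM and 24.04 M at 5 µM (M, mega). The number of genes above 0 was lower with dose, at 21862, 19352 and 17293. Of 9 neuroendocrine markers 8 passed the filter, whereas none of 6 luminal prostate markers did, the highest being TMPRSS2 with 0.273 FPKM at 2.5 µM and 0.116 at 5 µM. Of a wider list of 26 androgen receptor and luminal prostate genes 4 passed, among them the keratins of simple epithelia KRT8, with 414 FPKM at 2.5 µM and 505 at 5 µM, and KRT18, with 299 FPKM at 2.5 µM and 379.5 at 5 µM. Fibroblast and endothelial markers summed to 1.05 and 0.741 FPKM at 2.5 µM and to 1.54 and 0.581 FPKM at 5 µM, and all 5 immune markers were listed at 0 in both JG231 libraries. In a bulk library, fewer cells of a type and less RNA per cell cannot be told apart. With 1 library a side no p-value or standard deviation is given for any gene or class. A change is log2 of (FPKM at 5 µM + 0.1) over (FPKM at 2.5 µM + 0.1), which understates the change of low genes, and "higher" and "lower" mean a change past 0.25 in that direction. The spread quoted beside a gene is the robust standard deviation of the changes of the 500 members nearest in mean FPKM, and the interval quoted is the 95% exact binomial interval of its fragments, which covers counting error only.

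Most genes stood close to their 2.5 µM level. Of the 7432 members 4370 (58.8%) changed by at most 0.25, the median change was 0.01 and the robust standard deviation 0.30. The share that was higher was 21.6% (1606 genes) and the share that was lower 19.6% (1456 genes), so the members past the threshold were split 52.4% to the higher side. That split was 34.3% to the higher side when each library was rescaled to the same sum without mitochondrial and small RNA genes, since the rescaling lowered each change by about 0.09 and the median change to -0.08. Class medians between 0 and 0.09 therefore turn negative under it. Only 1.44% of members (107 genes) were higher by more than 1 and 0.848% (63 genes) lower by more than 1, and among the 6900 protein-coding members these were 27 and 16 genes. Of those 43 protein-coding genes, 37 had a mean under 10 FPKM. The spread narrowed with level, from 0.37 in the lowest decile of protein-coding members (median 5.55 FPKM) to 0.20 in the highest (median 101 FPKM), where counting alone would give 0.075 and 0.024. At the filter's edge, SLC15A4 just below it had 4.98 FPKM at 2.5 µM and 5.01 FPKM at 5 µM, and SHLD2 just above it had 4.65 FPKM and 5.35 FPKM. Of the members, 262 were under 5 FPKM only at 2.5 µM and 285 only at 5 µM, so they passed through the dose at which they were high and had to differ. Among the genes named here ARID3A, BMP8A, BOK, CPLANE2, FADD, H2AC20, HMX2, KCNK12, MTHFS, MVK, NDUFC2, NFKBIE, OIP5, SHLD2, SLC25A10, SLC30A1, SNHG10, SPSB2, TMCO6 and ZNF511 passed only through 5 µM. AC090425.1, AC138696.2, ATL1, BAG4, BEND5, BID, CALML5, CWF19L2, EDEM1, HTR3A, KIT, NFKBID, NPPC, PCDHB2, RET, RPAP3, SNTG2-AS1, STYK1, TMEM44 and VIPAS39 passed only through 2.5 µM.

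**Figure D1:**
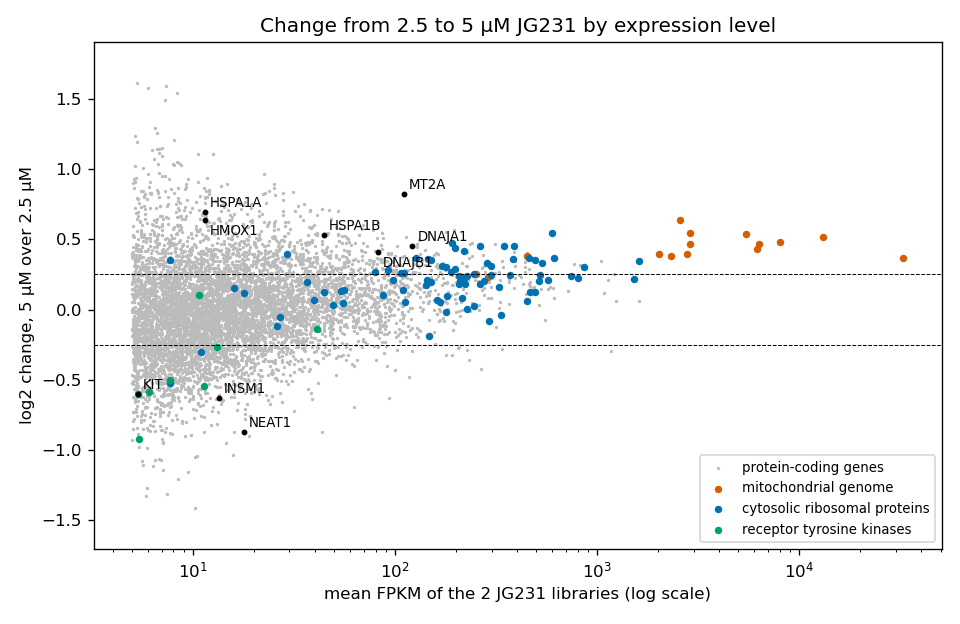
Log2 change from 2.5 to 5 µM JG231 (vertical axis) against the mean FPKM of the 2 JG231 libraries (horizontal axis, log scale). Each point is a gene, grey for protein-coding members and coloured for 3 classes, dashed lines mark 0.25 and -0.25, and black points are named genes. The cloud narrows to the right, the mitochondrial transcripts sit above 0 at the right and MT2A stands at 0.82.

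Among the cytosolic chaperones, HSPA1A, HSPA1B, HSPA8, DNAJA1 and DNAJB1 were higher at 5 µM than at 2.5 µM. HSPA1A (ENSG00000204389, chromosome 6, 31815543 to 31817946), a stress-inducible HSP70, had 7.21 FPKM in DMSO, 8.72 at 2.5 µM and 14.2 at 5 µM. HSPA1B (ENSG00000204388, chromosome 6, 31827738 to 31830254), its near-identical neighbour, had 25.2 FPKM in DMSO, 36.4 at 2.5 µM and 52.5 at 5 µM. Both stepped up at each dose, by 0.70 (spread 0.32, interval 0.53 to 0.87) and 0.53 (spread 0.22, interval 0.45 to 0.61) between the doses, although the counting could have split reads between these copies. HSPA8, the constitutive cytosolic HSP70, had 189 FPKM in DMSO, 136 at 2.5 µM and 180.5 at 5 µM, so its change of 0.40 between the doses brought it back towards its DMSO level. DNAJB1 (ENSG00000132002, chromosome 19, 14514769 to 14560391), the J-domain protein paired with HSP70 in the stress response, had 36.9 FPKM in DMSO, 70.4 at 2.5 µM and 93.3 at 5 µM, a change of 0.41 against a spread of 0.22. DNAJA1, a J-domain protein of the cytosol, had 94.2 FPKM in DMSO, 103 at 2.5 µM and 141 at 5 µM and changed by 0.45 (spread 0.21). DNAJB2 changed by 0.47, the largest difference on the higher side among the J-domain proteins.

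Across the HSP70 family 11 of 16 genes passed the filter, and 3 were higher and 2 lower, shares near the 21.6% and 19.6% over all members, with a median of 0.14. The members of the endoplasmic reticulum and of mitochondria were not past the threshold. HSPA5 (BiP), the HSP70 of the endoplasmic reticulum, had 209 FPKM in DMSO, 305 at 2.5 µM and 353 at 5 µM, a change of 0.21. HSPA9, the mitochondrial HSP70, had 56.9 FPKM in DMSO, 109 at 2.5 µM and 108 at 5 µM and stood at the same level at both doses (-0.02). HSPA6, a strictly inducible HSP70 chosen here after its values were seen, had 0.603 FPKM in DMSO, 5.63 at 2.5 µM and 5.73 at 5 µM. HSPA14, a ribosome-associated member, was lower at 5 µM (22.7 FPKM at 2.5 µM and 14.2 at 5 µM, -0.67), as was the exchange factor HSPA4 (-0.30). Of 26 J-domain proteins 8 were higher and 4 lower (median 0.11), and the lowest were DNAJC2 at -0.60 and DNAJC25 at -0.58.

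Among 13 exchange and partner factors 4 were higher and 2 lower, shares not far from the 21.6% and 19.6% over all members, with a median of 0.0026. STUB1, the ubiquitin ligase that binds HSP70, had 12.7 FPKM in DMSO, 12.8 at 2.5 µM and 16.5 at 5 µM (0.36, spread 0.28). HSPBP1, an exchange factor, changed by 0.49, ST13 (Hip) by 0.38 and STIP1 (Hop), the adaptor between HSP70 and HSP90, by 0.34. BAG4 was lower (-0.53), and BAG3, a heat shock-inducible exchange factor chosen after its values were seen, had 16.8, 19.8 and 19.8 FPKM in DMSO, at 2.5 µM and at 5 µM, the same at both doses to the digits shown.

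Of 21 HSP90 genes and cochaperones 5 were higher, near the 21.6% over all members, and 1 was lower. Their median was 0.08, and -0.0038 under the rescaling. The peptidyl-prolyl isomerases that dock on HSP90 stood highest, with PPID changing from 11.4 to 17.6 FPKM (0.62) and FKBP4 from 11.9 to 17.7 FPKM (0.57). HSP90AB1, named after its values were seen, had 618 FPKM in DMSO, 389 at 2.5 µM and 490.3 at 5 µM, a partial return towards DMSO. RPAP3, a scaffold of an HSP90 assembly complex, was lower at -0.86. Small heat shock genes were represented by HSPB1, with 321 FPKM in DMSO, 733 at 2.5 µM and 912 at 5 µM (0.31), which was 0.13 with the length trend removed. HSF1 itself differed by 0.09. The 18 chaperonin and prefoldin subunits had a median of 0.15, with 3 higher and 0 lower, of which HSPE1 (0.36) and CCT3 (0.34) stood highest.

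UBB, a polyubiquitin gene that supplies free ubiquitin under stress, had 246 FPKM in DMSO, 157 at 2.5 µM and 232 at 5 µM. Its change between the doses was 0.56 (spread 0.19), a return towards its DMSO level. Of 35 ubiquitin and E2 enzyme genes 8 were higher and 3 lower, and the share that was higher was close to the 21.6% over all members. Their median of 0.10 was 0.01 under the rescaling. Of 46 proteasome genes 17 were higher and 3 lower, with a median of 0.18 (0.11 with the length trend removed). Their median transcript was 1494 bp, and of protein-coding members of 1147 to 1613 bp 32.2% were higher and 10.7% lower. PSMD3, a lid subunit, changed from 27.3 to 42.5 FPKM (0.64), PSMC3, an ATPase of the base, by 0.51 and PSMB4, a core subunit, by 0.48. The immunoproteasome subunits PSMB9 (38.5 FPKM at 2.5 µM and 28.7 at 5 µM, -0.42) and PSMB10 (11.1 FPKM at 2.5 µM and 8.37 at 5 µM, -0.40) were lower. SQSTM1 (p62), an autophagy receptor that binds ubiquitinated cargo and that was chosen after its values were seen, had 30.5 FPKM in DMSO, 85.9 at 2.5 µM and 117 at 5 µM (0.45).

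MT2A (ENSG00000125148, chromosome 16, 56608584 to 56609497), a zinc-binding metallothionein, had 59.3 FPKM in DMSO, 79.8 at 2.5 µM and 141 at 5 µM, a change of 0.82 against a spread of 0.21 (interval 0.73 to 0.91). Of 15 metallothionein and zinc exporter genes 3 passed the filter, and the other two were MT1F, with 3.78 FPKM in DMSO, 8.44 at 2.5 µM and 11.2 at 5 µM (0.40), and the zinc exporter SLC30A1, with 4.26 FPKM in DMSO, 4.99 at 2.5 µM and 7.64 at 5 µM (0.60). SLC30A1 passed only through its level at 5 µM. MT1X, below the filter and chosen after its values were seen, had 2.10 FPKM in DMSO, 2.41 at 2.5 µM and 5.09 at 5 µM. HMOX1 (ENSG00000100292, chromosome 22, 35380361 to 35394214), haem oxygenase 1, had 1.21 FPKM in DMSO, 8.92 at 2.5 µM and 13.9 at 5 µM and changed by 0.63 (spread 0.31). Of 25 genes of the NRF2 antioxidant and glutathione list 9 were higher and 1 lower (21.6% and 19.6% over all members). The median was 0.16, and 0.11 with the length trend removed. Their median transcript was 1554 bp, and of protein-coding members of 1147 to 1613 bp 32.2% were higher and 10.7% lower. GPX2, a glutathione peroxidase, changed from 5.63 to 8.37 FPKM (0.56), while GSTO1, a glutathione transferase, was the member that was lower, going from 21.3 to 10.3 FPKM (-1.03). MT2A and MT1F have short transcripts, and with the length trend removed their changes were 0.58 and 0.17.

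**Figure D2:**
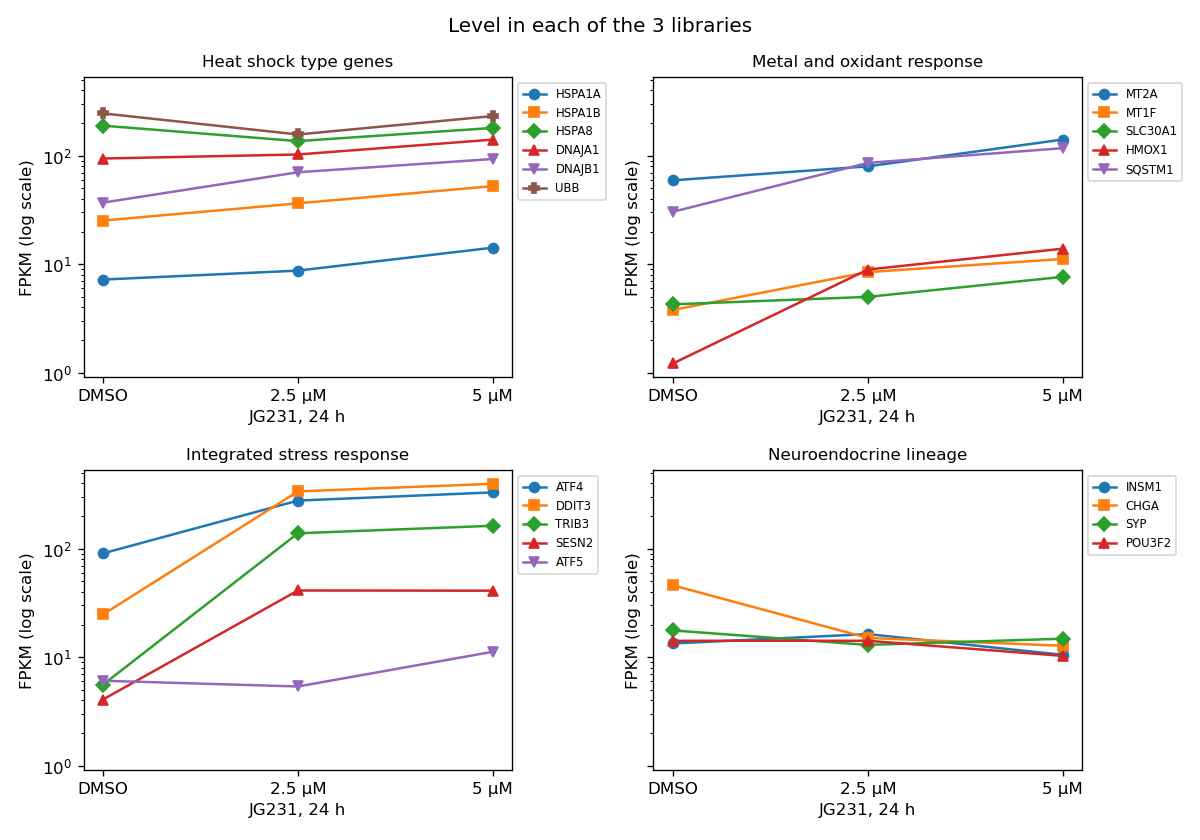
FPKM (log scale, vertical axes) in the DMSO, 2.5 µM and 5 µM libraries for 4 groups of genes, 1 point per library and no error bars since there was 1 library each. The heat shock type genes and MT2A slope upwards between 2.5 and 5 µM, SESN2 is level there and INSM1 slopes downwards.

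Genes of the integrated stress response showed no common step between the doses. Of 25 ATF4 and CHOP targets 6 were higher and 5 lower between the doses, shares close to the 21.6% and 19.6% over all members, and their median was 0.01, whereas their median from DMSO to 2.5 µM was 1.92. These medians share the 2.5 µM library and are given side by side only. The following core genes were chosen after their values were seen. ATF4 had 90.6 FPKM in DMSO, 278 at 2.5 µM and 331 at 5 µM, DDIT3 (CHOP) 24.8 FPKM in DMSO, 338 at 2.5 µM and 397 at 5 µM, and TRIB3, a pseudokinase induced by CHOP, 5.58 FPKM in DMSO, 139 at 2.5 µM and 163 at 5 µM. Their changes between the doses were 0.25, 0.23 and 0.23, a little above the spread of 0.19 at that level and far below their distance from DMSO. SESN2 had 4.07, 41.2 and 41.0 FPKM in DMSO, at 2.5 µM and at 5 µM, and GDF15 179, 1572 and 1637 FPKM.

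Single members of this response did differ. ATF5, a transcription factor of the mitochondrial and amino acid stress responses, had 6.06 FPKM in DMSO, 5.37 at 2.5 µM and 11.2 at 5 µM and so changed by 1.05 (spread 0.34), with fragments of 316 and 780 at the lower and higher dose. PPP1R15A (GADD34), the phosphatase subunit that restores translation, changed by 0.34, and ATF3 by 0.33. On the lower side were JDP2 (-0.47), VEGFA (71.2 FPKM at 2.5 µM and 53.8 at 5 µM, -0.40) and DDIT4, an inhibitor of mTORC1 (-0.36). The 23 cytosolic aminoacyl-tRNA synthetase genes, which charge tRNAs, had a median of 0.01, with 2 higher and 1 lower. Of 10 mitochondrial ones 4 were higher and 1 lower, with a median of -0.02. Over all members 21.6% were higher and 19.6% lower. Host genes of small nucleolar RNAs had a median of -0.01 (1.67 from DMSO to 2.5 µM), with SNHG11 at 0.77 and SNHG10 at 0.72 apart from the rest.

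Chaperones of the endoplasmic reticulum had a median of 0.13 over 26 genes (4 higher and 3 lower, against 21.6% and 19.6% over all members). SERPINH1, a collagen chaperone, changed by 0.41 and PDIA4, a disulfide isomerase, by 0.35, while the exchange factor SIL1 was lower (-0.41). The sensors and degradation genes of that compartment had a median of -0.01, with SELENOS at 0.46 and UBE2J2 at 0.49 on the higher side and EDEM1 at -0.46 on the lower. Targets of p53 and growth arrest genes had a median of -0.04 over 27 genes and KLF transcription factors -0.09 over 10, against 0.91 and 1.07 from DMSO to 2.5 µM. In the KLF list KLF5 was lower, with 28.4 FPKM in DMSO, 56.2 at 2.5 µM and 30.6 at 5 µM (-0.87), which placed it near its DMSO level. Among cell death genes the BCL2 family had a median of -0.13, with 2 of 14 higher and 4 lower, set against 21.6% and 19.6% over all members. The pro-apoptotic members BAD, which went from 17.9 to 32.7 FPKM (0.86), and BOK, from 4.91 to 8.14 FPKM (0.72), were higher. The pro-apoptotic BID (6.29 to 4.45 FPKM, -0.49) and BCL2L11 (12.1 to 9.51 FPKM, -0.35) were lower, as was the anti-apoptotic BCL2 (12.3 to 9.42 FPKM, -0.38). The death adaptor FADD, of another list, went from 3.49 to 6.73 FPKM (0.93).

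All 15 transcripts of the mitochondrial genome had more FPKM at 5 µM than at 2.5 µM, and 14 were higher by the threshold, against 21.6% of all members. Their median change was 0.43, which was 0.29 with the length trend removed. MT-CO1, a subunit of cytochrome c oxidase, had 25116 FPKM in DMSO, 6689.6 at 2.5 µM and 9338 at 5 µM, and MT-ND4, a subunit of complex I, had 8143 FPKM in DMSO, 2337 at 2.5 µM and 3415 at 5 µM. These mRNAs thus stood between their 2.5 µM and DMSO levels. The 13 mRNAs were all below DMSO at both doses, whereas the ribosomal RNAs MT-RNR1, with 2725 FPKM in DMSO, 10793 at 2.5 µM and 15417 at 5 µM, and MT-RNR2, with 12259.8 FPKM in DMSO, 28642 at 2.5 µM and 36860.1 at 5 µM, were above it at both. MT-ND6, the mRNA encoded on the light strand, had 3390.0 FPKM in DMSO, 230.6 at 2.5 µM and 274 at 5 µM and changed by 0.25, and MT-ATP8 had the smallest change of the set (0.23). The mitochondrial share of all FPKM was 37.5% in DMSO, 23.6% at 2.5 µM and 28.2% at 5 µM.

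**Figure D3:**
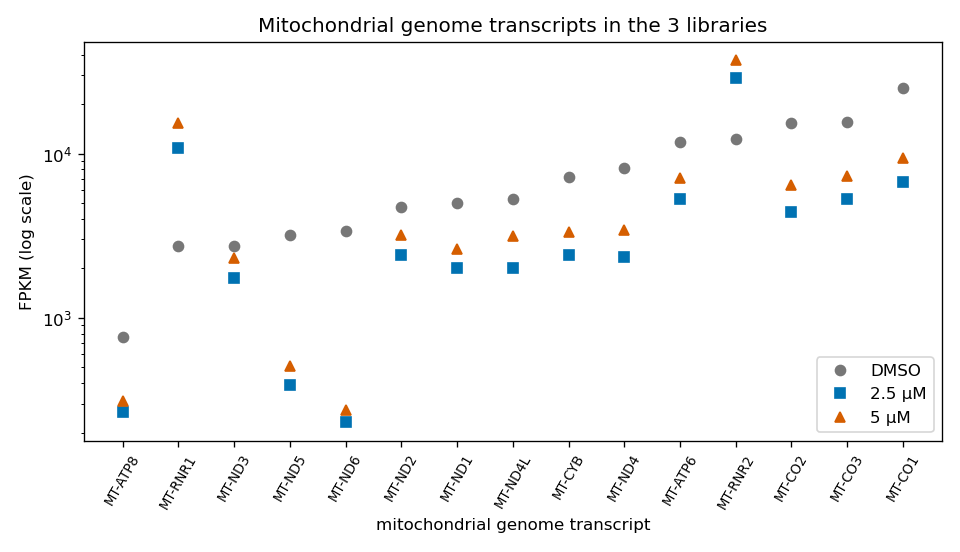
FPKM (log scale, vertical axis) of the 15 mitochondrial genome transcripts (horizontal axis, ordered by their DMSO level) in the DMSO (circles), 2.5 µM (squares) and 5 µM (triangles) libraries. Every triangle lies above its square, and circles lie above both for the 13 mRNAs and below both for MT-RNR1 and MT-RNR2.

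Nuclear genes of ribosomal proteins and of the respiratory chain were shifted slightly upwards. Other nuclear lists of the same organelle were not, with medians of -0.02 for mitochondrial aminoacyl-tRNA synthetases and -0.01 for the tricarboxylic acid cycle. Of 81 cytosolic ribosomal protein genes 30 were higher and 2 lower, against 21.6% and 19.6% over all members and 40.0% and 9.42% among the shortest transcripts. The median was 0.21. RPS15 changed from 487 to 711 FPKM (0.55) and RPS28 from 161 to 223 FPKM (0.48), while RPL26 was lower (9.12 FPKM at 2.5 µM and 6.32 at 5 µM, -0.52). Ribosomal protein genes have many processed pseudogenes that can share their reads, so single members are uncertain. Mitochondrial ribosomal proteins (77 genes, 28 higher and 6 lower) had a median of 0.17 and nuclear respiratory chain subunits (73 genes, 24 and 3) of 0.16. NDUFC2, an accessory subunit of complex I that passed only through 5 µM, had 10.7 FPKM in DMSO, 4.81 at 2.5 µM and 11.2 at 5 µM (1.20), and ATP5MC1, of the ring of ATP synthase, changed by 0.71. ATP5ME was the lowest of the respiratory chain list, at -0.90.

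These shifts moved with transcript length. Over 6887 protein-coding members outside the mitochondrial genome, the Spearman correlation across genes between the change and transcript length was -0.37, where genes share the same pair of libraries and are not replicates. The decile with the shortest transcripts (median 870.5 bp) had a median change of 0.18, with 40.0% higher and 9.42% lower. The decile with the longest (median 7501 bp) had a median of -0.17, with 4.64% higher and 37.2% lower. The median transcript of the ribosomal protein genes was 869 bp and that of the respiratory chain subunits 804 bp. With the length trend removed their medians were 0.05 and 0.06. The removal also lowered the medians to 0.07 for mitochondrial ribosomal proteins, 0.02 for chaperonins and prefoldin, 0.03 for HSP90 and its cochaperones, 0.07 for J-domain proteins and 0.05 for ubiquitin and E2 genes. The medians became 0.05 for endoplasmic reticulum chaperones, 0.06 for spliceosome core proteins and 0.16 for tubulins. That of the HSP70 family went up to 0.24. On the lower side the removal brought the MYC network to -0.07, voltage-gated channels to -0.10 and KLF factors to -0.01. Of single heat shock type genes HSPA1A stood at 0.65, HSPA1B at 0.49, DNAJA1 at 0.40 and DNAJB1 at 0.35, while UBB was brought to 0.40, HSPE1 to 0.14 and HSPB1 to 0.13.

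**Figure D4:**
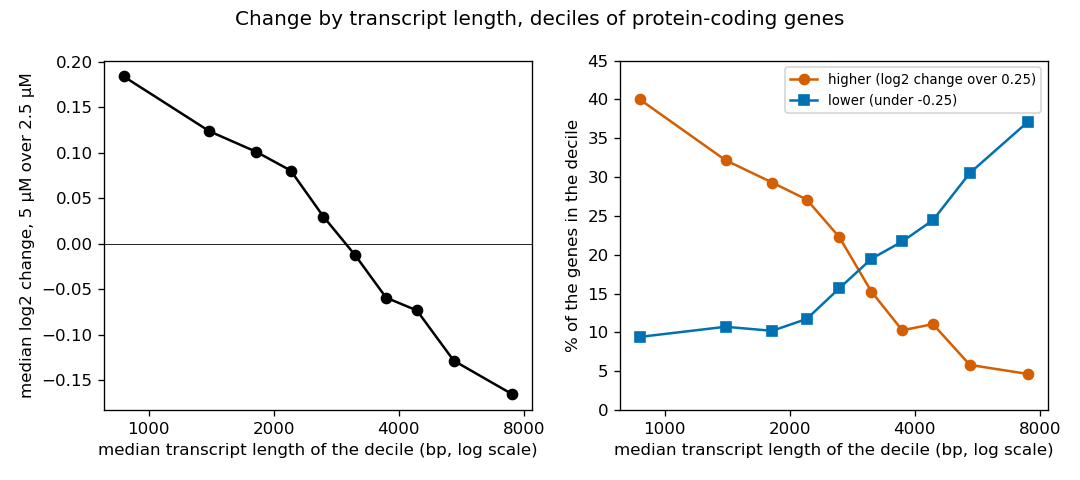
Median log2 change from 2.5 to 5 µM JG231 (left) and the percentage of genes higher or lower (right) in deciles of 6887 protein-coding genes by transcript length, placed at the median length of each decile (bp, log scale). The median goes from 0.18 in the shortest to -0.17 in the longest, and the higher and lower curves cross near the middle.

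On the lower side stood transcription factors of the neuroendocrine lineage. Of 16 that passed the filter 8 were lower and 1 was higher (19.6% and 21.6% over all members), with a median of -0.24, which was also -0.24 with the length trend removed. INSM1 (ENSG00000173404, chromosome 20, 20368104 to 20370949), a zinc-finger repressor of neuroendocrine cells, had 13.4 FPKM in DMSO, 16.3 at 2.5 µM and 10.5 at 5 µM, a change of -0.63 against a spread of 0.31 (interval -0.78 to -0.49). DLX5, a homeobox factor, had 21.7 FPKM in DMSO, 22.4 at 2.5 µM and 13.7 at 5 µM (-0.70), and POU3F2 (BRN2), a neural POU factor, had 14.2 FPKM in DMSO, 14.2 at 2.5 µM and 10.3 at 5 µM (-0.46). From DMSO to 2.5 µM the changes of these 3 genes were 0.29, 0.05 and 0.0011. ARID3A (0.38) was the member that was higher.

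Secretory granule genes, the classical neuroendocrine markers, showed no common step. Of 18 members, 4 were higher and 1 lower (21.6% and 19.6% over all members), with a median near 0. CHGA had 46.0 FPKM in DMSO, 15.05 at 2.5 µM and 12.7 at 5 µM (-0.24), ENO2 37.0 FPKM in DMSO, 30.8 at 2.5 µM and 27.8 at 5 µM (-0.15) and SYP 17.7 FPKM in DMSO, 13.0 at 2.5 µM and 14.8 at 5 µM (0.19), each within its spread of 0.28, 0.25 and 0.28. CHGB was lower (-0.42), and the peptide genes GRP, with 16.7 FPKM in DMSO, 9.98 at 2.5 µM and 15.3 at 5 µM (0.61), and VGF (0.57) were higher. NCAM1, below the filter, had 6.16 FPKM in DMSO, 4.82 at 2.5 µM and 3.40 at 5 µM. The filter passed 16 of 78 synaptic genes, with a median of -0.11, CPLX2 at -0.65 and CPLX1 at 0.64. DLL3, an inhibitory Notch ligand of neuroendocrine tumours, had 24.03 FPKM in DMSO, 9.64 at 2.5 µM and 17.8 at 5 µM (0.88), while the Notch effector HES1 was lower (-0.59).

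Of the genes that the study follows, MYC, MAX and AURKA were within the threshold. MYCN, which encodes N-Myc, was under the filter with 0.693 FPKM in DMSO, 0.226 at 2.5 µM and 0.559 at 5 µM, on 13 fragments at 2.5 µM and 37 at 5 µM. MYC had 4.62 FPKM in DMSO, 49.9 at 2.5 µM and 45.5 at 5 µM, so that it stayed (-0.13) near the level of the lower dose, and its partner MAX had 10.5 FPKM in DMSO, 21.3 at 2.5 µM and 19.7 at 5 µM (-0.11). AURKA, the mitotic kinase, had 24.2 FPKM in DMSO, 23.1 at 2.5 µM and 23.5 at 5 µM (0.02). Over 17 genes of the MYC network 2 were higher and 6 lower (median -0.16), where 21.6% and 19.6% of all members were. Of these, MLXIP (-0.38) and HUWE1 (-0.32), a ubiquitin ligase with a very long transcript, were lowest. With the length trend removed MLXIP stood at -0.19 and HUWE1 at -0.07.

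Of 40 receptor tyrosine kinases 8 passed the filter, 6 of them lower and 0 higher, with a median of -0.52. With a filter of 1 FPKM the median was -0.28 over 15 genes. STYK1 had 5.37 FPKM in DMSO, 7.08 at 2.5 µM and 3.70 at 5 µM (-0.92). KIT, the receptor of stem cell factor, had 24.1 FPKM in DMSO, 6.46 at 2.5 µM and 4.22 at 5 µM (-0.60), and RET, the receptor of the GDNF family, 26.4 FPKM in DMSO, 7.32 at 2.5 µM and 4.85 at 5 µM (-0.59), so both were lower at each dose. Since STYK1, KIT and RET passed the filter only through their level at 2.5 µM, the counts and this median are no support for a fall of the class. ERBB3 differed by 0.10. Cadherins and protocadherins had a median of -0.36 over 6 genes, 4 lower and 0 higher, with PCDHB2 at -0.61, which passed only through 2.5 µM, and PCDH1 at -0.48. Over all members 19.6% were lower. In 9 genes listed as voltage-gated channels the median was -0.26, with KCNH8 (-0.57) and KCNS3 (-0.57) lower and KCNK12 (0.83) and HCN2 (0.78) higher. KCNK12, a potassium channel that is not itself voltage-gated, passed only through 5 µM.

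**Figure D5:**
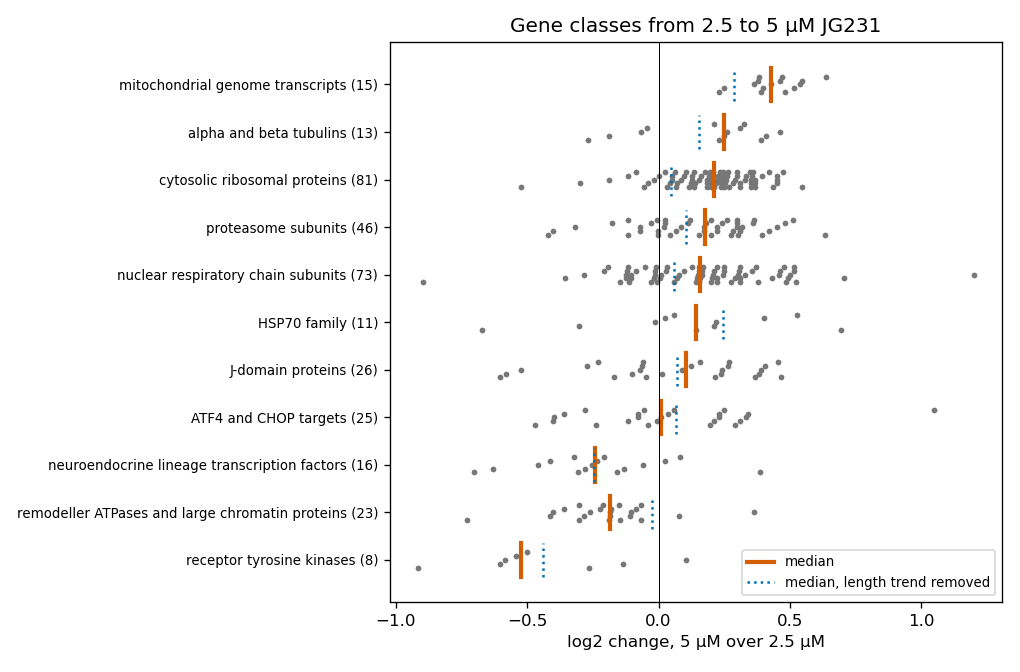
Log2 change from 2.5 to 5 µM JG231 (horizontal axis) of each member of 11 gene classes (grey points, number of members in brackets), with the class median (solid line) and the median with the length trend removed (dotted line). The medians run from 0.43 for the mitochondrial genome to -0.52 for receptor tyrosine kinases, and the 15 mitochondrial points all lie above 0.

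Large chromatin proteins have long transcripts, here with a median of 7385 bp. Of 23 remodeller ATPases and large chromatin proteins 8 were lower and 1 was higher, against 19.6% and 21.6% over all members and 37.2% and 4.64% among the longest transcripts. The median was -0.19, and -0.03 with the length trend removed. CHD3 had 14.4 FPKM in DMSO, 8.87 at 2.5 µM and 5.31 at 5 µM (-0.73). Lysine methyltransferases and demethylases had a median of -0.11, which turned to 0.011 with the length trend removed, with KDM6A at -0.60 and SUV39H2 at 0.48. Splicing genes were listed as regulators and as core proteins. SR proteins, hnRNPs and CLK kinases had 1 higher and 8 lower of 52 (median -0.03), led by SRRM2, with 60.6 FPKM in DMSO, 39.3 at 2.5 µM and 23.7 at 5 µM (-0.72), whereas spliceosome core proteins had 16 higher and 3 lower of 52 (median 0.13), led by PHF5A (0.54) and SNRPD2 (0.52). The difference between these lists was not tested.

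Genes of the cell cycle had medians near 0. The median was 0.0048 over 54 replication genes, -0.02 over 43 kinesins and centromere proteins and 0.05 over 36 mitotic kinases and anaphase genes. Within them CENPW (0.72), POLE4 (0.67) and CKS1B (0.43) were higher and MKI67 (8.55 FPKM at 2.5 µM and 5.55 at 5 µM, -0.61), ECT2 (-0.51) and RFC3 (-0.69) were lower. With the length trend removed MKI67 stood at -0.38. Replication-dependent histones, whose mRNAs mostly lack a poly(A) tail, passed the filter in 7 of 64 genes, 4 higher and 0 lower, and H2AC20 had 0.956 FPKM in DMSO, 3.78 at 2.5 µM and 10.8 at 5 µM (1.49) on 38 and 128 fragments at the lower and higher dose. Alpha and beta tubulins and their folding factors had 7 of 13 higher and 1 lower (median 0.25), where 21.6% and 19.6% of all members were, with TUBA1C (20.2 FPKM at 2.5 µM and 26.9 at 5 µM) and TUBB4B (134 FPKM at 2.5 µM and 176 at 5 µM) among the highest. Metabolic lists were level, at 0.0013 for glycolysis and -0.01 for the tricarboxylic acid cycle, and in cholesterol synthesis NSDHL was lower (13.0 FPKM at 2.5 µM and 5.81 at 5 µM, -1.15) while MVK was higher (0.76).

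Among protein-coding genes the largest single changes lay mostly at low levels, and all of the 12 largest on the higher side were under 5 FPKM at 2.5 µM. ZNF511 had 3.44 FPKM in DMSO, 2.55 at 2.5 µM and 7.998 at 5 µM (1.61), HMX2, a homeobox gene, 5.69 FPKM in DMSO, 3.62 at 2.5 µM and 11.1 at 5 µM (1.59), and MTHFS, a folate enzyme, 2.40 FPKM in DMSO, 2.95 at 2.5 µM and 8.98 at 5 µM (1.58). Of these 3 genes MTHFS had fragments of 182 and 654 at the lower and higher dose, and the spread at their levels was 0.44, 0.35 and 0.38. OIP5 (1.54), H2AC20 (1.49), BMP8A (1.29), TMCO6 (1.26), the mitochondrial carrier SLC25A10 (1.24), NDUFC2 (1.20), CPLANE2 (1.19), the NF-kB inhibitor NFKBIE (1.15) and SPSB2 (1.14) followed. OIP5 had 8.20 FPKM in DMSO, 4.21 at 2.5 µM and 12.4 at 5 µM. BMP8A had 7.13 FPKM in DMSO, 3.71 at 2.5 µM and 9.24 at 5 µM, and TMCO6 had 8.64 FPKM in DMSO, 3.88 at 2.5 µM and 9.41 at 5 µM.

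On the lower side of the protein-coding genes CHAC2, a glutathione-degrading enzyme, had 7.72 FPKM in DMSO, 14.97 at 2.5 µM and 5.57 at 5 µM (-1.41, spread 0.30). NPPC, the precursor of C-type natriuretic peptide, had 1.68 FPKM in DMSO, 8.43 at 2.5 µM and 3.30 at 5 µM (-1.33), and HTR3A, a serotonin-gated channel subunit, 4.51 FPKM in DMSO, 10.6 at 2.5 µM and 4.23 at 5 µM (-1.31). All of these genes were chosen for their step from the 2.5 µM library, so its distance from DMSO in them is not independent of that choice. TMEM44 (-1.27), PKN3 (-1.20), NSDHL (-1.15), BEND5 (-1.14), CALML5 (-1.11), CWF19L2 (-1.11), VIPAS39 (-1.08), ATL1 (-1.07) and the NF-kB inhibitor NFKBID (-1.07) were the next lowest protein-coding genes.

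Non-coding members moved in both directions. Of 201 long non-coding RNAs 77 were higher and 52 lower, and of 220 pseudogenes 92 and 51, where 21.6% and 19.6% of all members were. Their median transcripts were 968 and 606 bp, on medians of 385 and 203 fragments. Protein-coding members had medians of 2869 bp and 1573 fragments. In the decile of protein-coding members with the shortest transcripts 40.0% were higher and 9.42% lower, so these counts are no support for a trait of non-coding genes. AC004057.1, a processed pseudogene, had 17.6 FPKM in DMSO, 24.8 at 2.5 µM and 236 at 5 µM (3.24), and its reads can be shared with its parent gene. SNTG2-AS1, an antisense RNA, had 15.7 FPKM in DMSO, 19.0 at 2.5 µM and 3.39 at 5 µM (-2.45). Antisense genes are uncertain, since the sources used here do not say if the counting was strand-specific. AC090425.1 and AC138696.2 were listed at 0 at the higher dose. NEAT1, the scaffold RNA of paraspeckles, chosen after its values were seen, had 27.7 FPKM in DMSO, 23.2 at 2.5 µM and 12.6 at 5 µM (-0.87), whereas MALAT1, another abundant nuclear RNA chosen in the same way, had 280.3 FPKM in DMSO, 53.7 at 2.5 µM and 54.1 at 5 µM (0.01). Of 91 small RNA genes 52 were higher and 34 lower, on a median of 18.5 fragments, with 19 listed at 0 at 2.5 µM and 16 at 5 µM, too few fragments to place a single gene.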

How the data were processed

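RNA-seq of H660 cells in DMSO, 2.5 µM or 5 µM JG231 was analysed, 1 library each. The authors deposited gene-level FPKM in 1 table. Their processing notes name HISAT2, featureCounts, GRCh38 and hg38, whereas the paper names HISAT, StringTie and also Top Hat with Cufflinks, so the pipeline is uncertain, and versions are not given in the sources used here. FPKM is relative to each library's own total, so a class that takes more of a library lowers the rest.

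GENCODE release 44 held 58207 of the 58735 gene identifiers and all but 11 of the 7432 members. Depth came from FPKM multiplied by exon length, which lay within 0.1 of whole multiples of 1 fragment in 90.3%, 87.9% and 86.4% of single-transcript genes under 50 fragments (DMSO, 2.5 µM, 5 µM). For genes with several transcripts the fragments behind an interval are approximate.

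Members and 70 gene lists were chosen with earlier results of these data known, and medians were computed for the 67 lists with at least 5 members, of which the text gives a selection. Named genes are the 12 largest changes each way among protein-coding members, up to 3 and 2 at the ends of each list, the genes the study follows, the mitochondrial genome and the 5 largest non-coding changes each way. Others are said to be chosen after their values were seen, and a few named genes are not reported here. The length trend was removed by lowess (fraction 0.3). Alternatives were other filters, a pseudocount of 1, rescaling, centring and, added after seeing the data, protein-coding genes only. Code was tested on simulated data. Versions were Python 3.11.15, matplotlib 3.10.9, numpy 2.4.6, statsmodels 0.14.6, pandas 2.3.3 and scipy 1.17.1.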

Additional observations from a re-analysis of the deposited data

How the results depend on the processing

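No paired analysis was possible because each condition has 1 library, and for the same reason no replicate could be left out. The spread between genes was wider at low levels and above what counting alone would give in the lowest and the highest decile, and its cause was not tested. With a mean of at least 1 FPKM, 3325 genes were higher and 3641 lower, and with at least 20 FPKM 626 and 220, in filters that keep other numbers of genes. At the filter of 1, the median change was -0.28 for receptor tyrosine kinases, and it changed sign for amino acid transporters (-0.024), cytokines and chemokines (-0.27) and death receptors, caspases and IAPs (-0.16). At the filter of 20 it was 0.32 for J-domain proteins, -0.14 for receptor tyrosine kinases, with 1 gene left, and 0.059 for voltage-gated ion channels, also with 1 gene left. With the length trend removed it was 0.24 for the HSP70 family, 0.048 for cytosolic ribosomal proteins, 0.29 for the mitochondrial genome, -0.026 for remodeller ATPases and large chromatin proteins and 0.011 for lysine methyltransferases and demethylases. Over the 67 classes, removing the length trend moved 12 medians by 0.1 or more and reversed 1, a filter of 20 moved 12 and reversed 1, and a filter of 1 moved 5 and reversed 3. Only medians past 0.1 were counted as reversed, and several nearer 0 also changed sign. The cause of these moves was not tested, except that fewer or more genes entered under the filters. Rescaling, centring and a pseudocount of 1 moved none of the 67 class medians by 0.1 or more, and rescaling kept all 375 named genes within their spread of the value reported. For rescaling and centring this was fixed in advance and is no support. They shift class medians alike, by about 0.09 and 0.01, which is under the cut of 0.1. A pseudocount of 1 kept 369 of the 375 named genes within their spread and removing the length trend 363, and none of those past 0.25 changed sign.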
